A study of Rattus norvegicus with 9 samples.

Results

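Neutrophil receptor and oxidase genes are described here in rat back skin as a set of 9 genes chosen by symbol: Csf3r, Csf3, Cxcr2, Itgb2, Itgam, Fpr1, Fpr2, Ncf1 and Ncf4. The authors deposited 2 tables that list only selected genes, 6025 for the contrast of imiquimod with untreated skin and 399 for the contrast of added lidocaine with imiquimod alone, with 6197 gene IDs in either table. The imiquimod table lists 7 of the 9 genes and the lidocaine table lists 0 of them, while Itgam and Fpr2 are in neither and have no value here. All rats were wild-type Sprague Dawley animals of 250 g, with 3 skin samples in each of 3 groups. The first group received imiquimod, a Toll-like receptor agonist that induces a psoriasis-like dermatitis, on the back skin for 6 days together with 1% lidocaine, a local anaesthetic, into the epidural space for 4 days from day 3. The second group received imiquimod alone for 6 days, and the third was left untreated. Skin was taken on day 7. No group given a cream base or an epidural vehicle is among the samples, so effects of the drugs cannot be told apart from those of the base or of the handling. Nothing in the labels states whether the samples of a group came from different rats; p-values measure only how far these samples vary, which may be technical variation.

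As background, granulocyte colony-stimulating factor (encoded by Csf3) acts on its receptor (Csf3r) to drive the production and release of neutrophils. Chemokines that bind Cxcr2 and formylated peptides that bind the formyl peptide receptors (Fpr1, Fpr2) draw these cells into tissue, and the integrin of the beta-2 chain (Itgb2) with the alpha-M chain (Itgam) holds them on the vessel wall and binds complement-coated particles. The cytosolic subunits Ncf1 (p47phox) and Ncf4 (p40phox) then join the membrane part of the phagocyte NADPH oxidase, which makes superoxide. Most of these genes are also used by monocytes and macrophages, and Itgb2 by all leukocytes. Psoriatic skin in human is known for neutrophil collections in the upper epidermis.

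Promoter windows from 250 bases before to 50 after the start of transcription were available for 6 of the 9 genes from RefSeq (build GRCr8). They are shown for the growth factor receptor, the chemokine receptor and an oxidase subunit that were all higher after imiquimod, written 5′ to 3′ along each gene, with capitals where a searched motif matched. Csf3r lies at chr5:143582970-143583269, Cxcr2 at chr9:83178395-83178694 and Ncf1 at chr12:28121635-28121934, all on the plus strand.
Csf3r: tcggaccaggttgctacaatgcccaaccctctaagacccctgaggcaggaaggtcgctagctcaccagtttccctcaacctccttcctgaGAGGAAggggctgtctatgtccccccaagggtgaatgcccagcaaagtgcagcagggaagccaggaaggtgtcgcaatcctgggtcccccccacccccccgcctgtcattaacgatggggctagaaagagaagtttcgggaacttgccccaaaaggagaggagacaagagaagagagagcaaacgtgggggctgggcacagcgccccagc
Cxcr2: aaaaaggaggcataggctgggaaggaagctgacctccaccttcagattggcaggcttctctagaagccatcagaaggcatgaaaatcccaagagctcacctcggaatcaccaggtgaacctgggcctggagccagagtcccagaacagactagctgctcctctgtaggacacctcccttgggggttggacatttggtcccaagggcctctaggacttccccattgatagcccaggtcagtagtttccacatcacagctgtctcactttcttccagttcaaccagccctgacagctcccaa
Ncf1: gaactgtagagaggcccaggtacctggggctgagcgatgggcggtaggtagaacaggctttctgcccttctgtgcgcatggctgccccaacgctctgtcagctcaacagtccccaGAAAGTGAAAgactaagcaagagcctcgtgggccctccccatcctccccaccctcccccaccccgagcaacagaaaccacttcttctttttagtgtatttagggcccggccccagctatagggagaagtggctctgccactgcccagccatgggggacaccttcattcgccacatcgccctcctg
Motifs were searched on both strands. The PU.1 core GAGGAA matched in Csf3r 160 bases before the start, and in the windows of Fpr1, Fpr2 and Itgam, which are not shown. It is held by 27.6% of 33469 rat promoter windows. The interferon-stimulated response element, read here as GAAA, any 2 bases and GAAA, matched in Ncf1 135 bases before the start and is held by 3.92% of windows. The C/EBP motif TTGCNNAA (10.6% of windows) matched in Fpr2 and Itgam, and the AP-1 motif TGANTCA (7.33%) and the NF-kB motif (4.18%) matched in none of the 6 windows. Cxcr2 held no match. A match describes letters in a window and not a bound site, and the motifs do not overlap one another in the printed windows.

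Of the 7 listed genes, 6 were higher in imiquimod skin than in untreated skin by limma, and Fpr1 did not pass the adjusted p threshold of 0.05. Of all 6025 listed genes, 87.8% passed in either direction and 47.0% passed as higher. The table holds genes that already differed in these libraries (the smallest difference of group means in the table is 1.001 on the log2 scale). The count of 6 therefore supports nothing by itself, and adjusted p-values are smaller than a test over all genes would give. The median log2 difference of the 7 genes, imiquimod minus untreated, was 3.61, against 1.15 over all listed genes. The latter pools 2831 genes called higher and 2456 called lower, so it is not a typical change. Ncf4, the median member, stood above 87.1% of all listed genes. All differences are on the scale of log2(normalized count + 1), which understates the change of low genes, and normalized counts are not per gene length, so levels are not compared between genes. In whole skin, more cells of a type and more RNA per cell cannot be told apart.

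The ligand Csf3 (ENSRNOG00000008525) was measured at 94.9, 120.4 and 200.3 normalized counts in imiquimod replicates 1 to 3, against 0, 13.4 and 41.6 in untreated replicates 1 to 3. The groups did not overlap, and 1 untreated library held 0 reads. Csf3 averaged 139 ± 55 in imiquimod skin and 18.3 ± 21.2 in untreated skin (SD, n = 3 each), a difference of 3.97 ± 1.34 (SE, adjusted p = 0.0303). This call rests on every imiquimod library and on untreated replicate 2: without any 1 of these 4, the adjusted p was between 0.0549 and 0.0858. Without untreated replicate 1, which held the 0, the difference was 2.42 (adjusted p = 0.023).

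Its receptor Csf3r (ENSRNOG00000008759) showed the largest difference of the set. It was measured at 2409.9, 3608 and 3958 normalized counts in imiquimod skin, against 25.3, 34.1 and 46.6 in untreated skin. Each imiquimod library was far above each untreated one, and means were 3325 ± 812 in imiquimod skin and 35.3 ± 10.7 in untreated skin (SD, n = 3 each), a ratio of 94.1. The log2 difference was 6.53 ± 0.35 (adjusted p = 7.38e-05), which placed Csf3r at rank 159 of the 6025 listed genes. Leaving out 1 library at a time kept it between 6.31 and 6.74.

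The chemokine receptor Cxcr2 (ENSRNOG00000014269) was measured at 270, 376 and 319.6 normalized counts in imiquimod skin, against 25.3, 16.5 and 52.7 in untreated skin. The lowest imiquimod library stood well above the highest untreated one. Means of 322 ± 53.3 in imiquimod skin and 31.5 ± 18.9 in untreated skin gave a log2 difference of 3.46 ± 0.46 (adjusted p = 0.0014).

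The formyl peptide receptor Fpr1 (ENSRNOG00000011174) was barely detected. It had 0, 11 and 7 reads in imiquimod replicates 1 to 3, or 0, 11.1 and 5.72 normalized counts, against 0 reads in each untreated library. It was the 1 listed member whose groups overlapped, since imiquimod replicate 1 also held 0. The mean of 5.62 ± 5.57 normalized counts in imiquimod skin was at least 1.76-fold higher than the level of 3 reads per library that a count of 0 allows (3.20 normalized counts), and the fitted difference of 2.12 ± 0.90 did not pass (adjusted p = 0.0612). It passed without imiquimod replicate 1 (3.17, adjusted p = 0.00225) and was 1.37 without imiquimod replicate 2, where the imiquimod mean of 2.86 normalized counts was below that level and gives no fold. RefSeq lists further rat genes of this family, so reads shared among near-identical copies may be assigned differently by another counting method.

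The integrin chain Itgb2 (ENSRNOG00000001224) was measured at 12571, 8023 and 7619 normalized counts in imiquimod skin, against 356, 304 and 704 in untreated skin. Every imiquimod library was far above the highest untreated library, with a ratio of means of 20.7. Means were 9405 ± 2750.02 in imiquimod skin and 455 ± 218 in untreated skin, and the log2 difference was 4.43 ± 0.42 (adjusted p = 0.000423).

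Both listed oxidase subunits were higher by a similar amount. Ncf1 (ENSRNOG00000001480) was measured at 9544, 4181 and 5006 normalized counts in imiquimod skin, against 531, 479 and 656 in untreated skin. The untreated libraries lay close together, whereas imiquimod replicate 1 was about 2.28 times replicate 2. The means of 6243 ± 2888 in imiquimod skin and 555 ± 90.7 in untreated skin gave a log2 difference of 3.41 ± 0.39 (adjusted p = 0.000839). Ncf4 (ENSRNOG00000006940) was measured at 5745, 3739 and 4133 normalized counts in imiquimod skin, against 317, 288 and 535 in untreated skin. Its groups did not overlap either, with means of 4539 ± 1063 in imiquimod skin and 380.02 ± 135 in untreated skin and a log2 difference of 3.61 ± 0.36 (adjusted p = 0.000491).

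**Figure D1:**
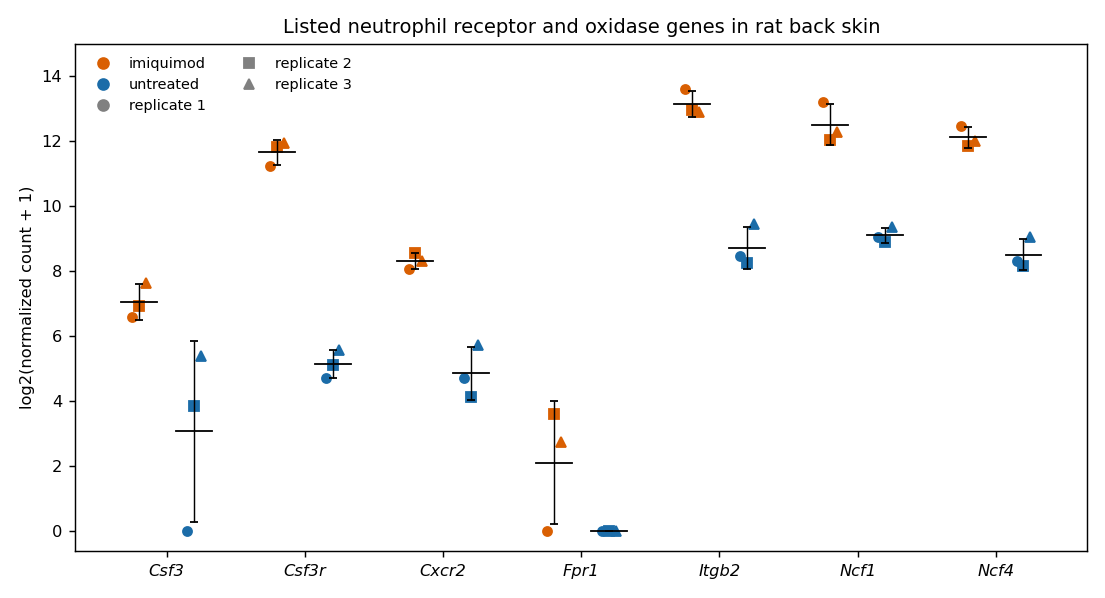
Each point is 1 library, on an axis of log2(normalized count + 1). Imiquimod libraries are on the left of each pair and untreated libraries on the right, and bars are the mean ± SD of the log2 values (n = 3 each). For 6 of the 7 genes the imiquimod libraries all lie above the untreated ones, and Fpr1 overlaps at 0.

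For 6 of the 7 genes, all imiquimod libraries were above all untreated libraries, as they were for 45.9% of all listed genes. Of the alternatives run, 5 members (Csf3r, Cxcr2, Itgb2, Ncf1 and Ncf4) kept their direction and call in each. With libraries scaled to equal totals or to equal medians of the listed genes, the median of all listed genes was 1.58 or 0.63, and that of the 7 genes was 4.04 or 3.09.

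Receptor and integrin did not differ by the same amount. The within-library log2 ratio of Csf3r over Itgb2, which no scaling of libraries can change beyond the pseudocount, was -2.38, -1.15 and -0.94 in imiquimod replicates 1 to 3, against -3.76, -3.12 and -3.89 in untreated replicates 1 to 3. The groups did not overlap, and the ratio was 2.10 higher in imiquimod skin (exact permutation test, two-sided, p = 0.1, the smallest p that 3 against 3 samples allow). For Ncf1 over Ncf4 the ratio was 0.73, 0.16 and 0.28 in imiquimod skin, against 0.74, 0.73 and 0.29 in untreated skin. These groups overlapped, with a difference of -0.20 that was smaller than the SD within either group (exact permutation test, two-sided, p = 0.3).

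The members also did not rank the imiquimod libraries alike. Imiquimod replicate 1 was the highest of its group for Itgb2, Ncf1 and Ncf4, and the lowest for Csf3, Csf3r, Cxcr2 and Fpr1. Its log2 value stood 0.71 above the group mean for Ncf1 and 0.43 below it for Csf3r. Replicate 1 was also highest for 8 of the 9 listed oxidase genes, all but Prex1, against 2288 of all 6025 listed genes. These 9 include Ncf1 and Ncf4, and for Vav1 replicate 1 stood only 0.027 above the group mean. The order was not particular to oxidase genes. Replicate 1 was highest for 7 of 10 T and NK cell markers and 3 of 3 keratinocyte genes. For macrophage and monocyte markers it was highest for 6 of 14, and for neutrophil granule genes for 3 of 10. Among the untreated libraries, replicate 3 was highest for 6 of the 7 members, for 9 of 9 oxidase genes and for 13 of 14 macrophage and monocyte markers, against 2668 of all listed genes. What sets these orders was not tested.

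**Figure D2:**
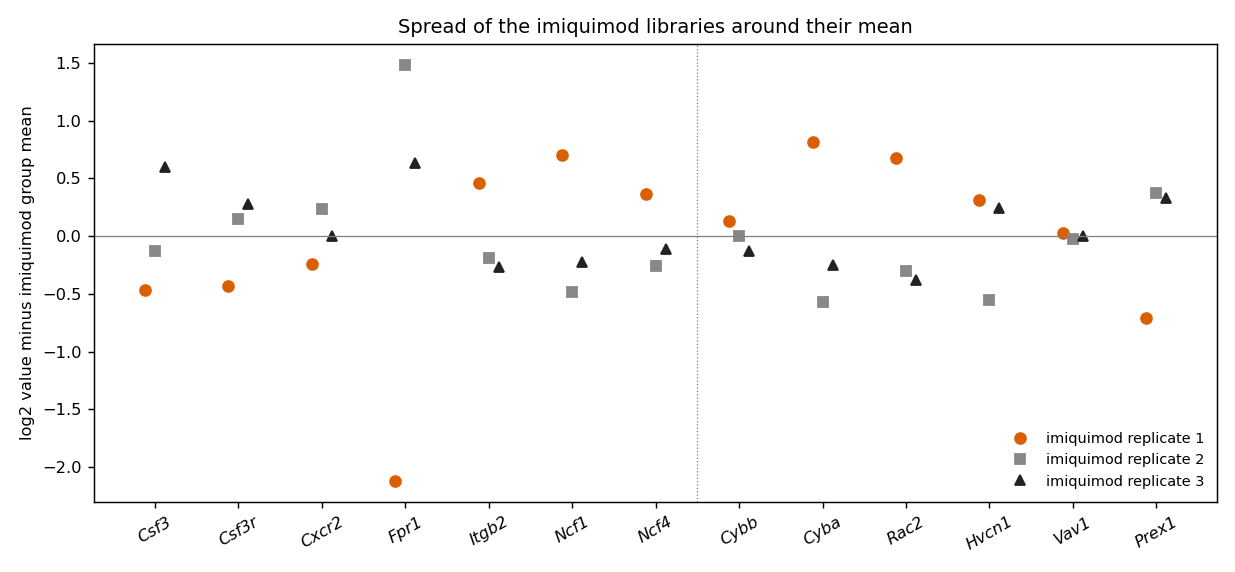
Points show the log2 value of each imiquimod library minus the mean of the imiquimod group, for the 7 members (left of the dotted line) and 6 other oxidase genes (right of it). Replicate 1 is at the top for Itgb2, Ncf1, Ncf4 and the other oxidase genes except Prex1, and at the bottom for Csf3, Csf3r, Cxcr2 and Fpr1.

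The other genes of the same pathways were read from lists chosen by role. In this table of selected genes 47.0% of all rows passed as higher, so the counts of these lists support nothing by themselves. Of the 10 genes of the oxidase complex, 9 are listed and 9 were higher (median difference 3.74), which includes Ncf1 and Ncf4. The catalytic subunit Cybb (gp91phox) had 47329, 43255 and 39477 normalized counts in imiquimod skin, against 1054, 874 and 1956 in untreated skin, a log2 difference of 5.15 ± 0.37 (adjusted p = 0.000178). Cybb is the membrane partner of the cytosolic subunits, without which the phagocyte NADPH oxidase makes no superoxide. Vav1, an exchange factor for Rac proteins, differed by 5.68 ± 0.49 and Rac2, the small GTPase of the active complex, by 3.56 ± 0.39 (adjusted p = 0.000299 and 0.000706). The other membrane subunit Cyba, named after its value was seen, differed by 2.76 ± 0.41 (adjusted p = 0.00214). Among the oxidases of other cell types, 3 of 9 genes are listed. Duox1 was higher by 1.11 ± 0.30 (adjusted p = 0.015, but 0.135 with libraries scaled to equal medians), Nox1 was lower with a difference of -1.69 ± 0.39 (adjusted p = 0.0086), and Duox2 did not pass (-1.54 ± 0.67, adjusted p = 0.0641). Duox2 passed as lower with equal medians (-2.04, adjusted p = 0.0261), and its difference was -0.80 without imiquimod replicate 2.

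All 13 genes of the list of other beta-2 integrin chains, selectins, ligands and kinases of leukocyte adhesion are listed, and 13 were higher (median 4.03). The alpha-L chain Itgal, a partner of Itgb2 on lymphocytes and neutrophils, had 6399, 6257 and 7969.7 normalized counts in imiquimod skin, against 165, 108 and 295 in untreated skin (difference 5.29 ± 0.42, adjusted p = 0.000227). The Src-family kinase Fgr, which acts downstream of beta-2 integrins, differed by 4.98 ± 0.29 (adjusted p = 8.9e-05). Other alpha chains that pair with Itgb2, named after their values were seen, were Itgax (5.92 ± 0.57) and Itgad (4.30 ± 0.57), both higher.

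Of 8 other colony-stimulating factor genes and receptors, 7 are listed, with 6 higher and 1 lower (median 2.38). The receptor chains Csf2ra, Csf2rb and Csf1r, for the granulocyte-macrophage and macrophage factors, differed by 3.25 ± 0.36, 3.70 ± 0.64 and 2.38 ± 0.40. Csf2 itself was low, at 19.2, 9.11 and 35.1 normalized counts in imiquimod skin, against 0, 4.13 and 0 in untreated skin (3.50 ± 0.80, adjusted p = 0.00851). The lower gene was Il34, the second ligand of Csf1r (-1.21 ± 0.36, adjusted p = 0.0195), named after its value was seen; its call was lost with libraries scaled to equal totals (adjusted p = 0.0867), with the replicate block (0.055) and without imiquimod replicate 3 or untreated replicate 1 (0.0578 and 0.0593). Of 12 genes of signalling from Csf3r and of granulocyte transcription factors, 10 are listed and 10 were higher (median 2.36). They include the kinase Lyn (4.42 ± 0.32), the feedback inhibitor Socs3 (3.34 ± 0.47) and the transcription factors Spi1 (PU.1, 3.94 ± 0.36) and Gfi1 (3.02 ± 0.28).

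The list of Cxcr2 ligands and related CXC genes has 11 genes, of which 6 are listed and 6 were higher (median 5.73). Cxcl3 had 462, 1275 and 873 normalized counts in imiquimod skin, against 0 reads in each untreated library, and was at least 272-fold higher than 3 reads per library allow. Cxcl2 had 229.9, 1327 and 351 in imiquimod skin, against 0 reads in untreated skin, at least 199-fold higher, or at least 90.8-fold without imiquimod replicate 2. Both encode chemokines that bind Cxcr2. A further such ligand, Cxcl1, had 433, 319.8 and 597 normalized counts in imiquimod skin, against 32.3, 38.2 and 38.5 in untreated skin (3.55 ± 0.32, adjusted p = 0.000347). The epithelial chemokine Cxcl17 differed by 7.09 ± 0.47. Of 10 further chemoattractant receptor genes, 6 are listed and 6 were higher (median 2.98), among them the complement receptors C3ar1 (6.67 ± 0.36) and C5ar1 (3.75 ± 0.31) and the platelet-activating factor receptor Ptafr (2.20 ± 0.28). Fpr3, of the same family as Fpr1, had 36.6, 27.3 and 17.2 normalized counts in imiquimod skin, against 2.3, 0 and 0 in untreated skin (4.17 ± 0.57, adjusted p = 0.00156).

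**Figure D3:**
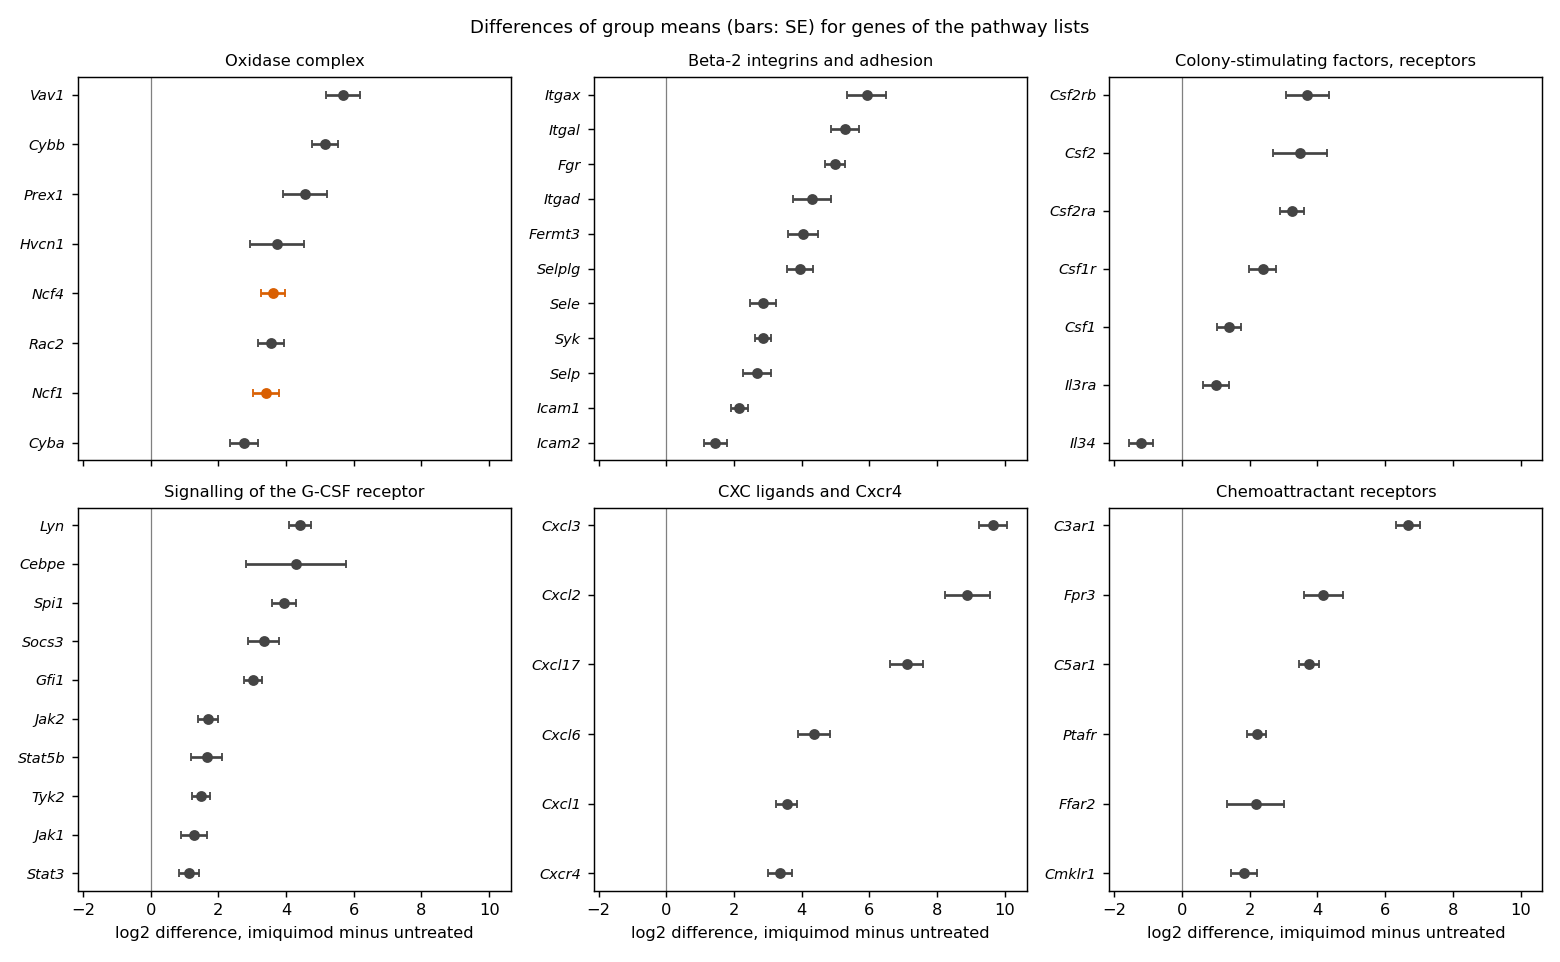
Each point is the log2 difference of group means, imiquimod minus untreated, for genes of 6 pathway lists, with bars of 1 SE (n = 3 each). Orange points are Ncf1 and Ncf4, every point shown passed the threshold, and Il34 is the gene left of 0. Genes with 0 reads in all untreated libraries (Cxcl2 and Cxcl3) are drawn at their fitted difference, which depends on the pseudocount.

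To check the label, the listed genes were set beside markers of neutrophils and of other cells. Counts of these lists, too, stand beside the 47.0% of all listed genes that passed as higher, and support nothing by themselves. Of 19 neutrophil granule genes, 10 are listed in the imiquimod table, with 6 higher, 1 lower and 3 not past the threshold (median 3.10). The calprotectin chains S100a8 and S100a9, which stressed keratinocytes also make, differed by 4.08 ± 0.35 and 5.53 ± 0.33, lysozyme (Lyz2), shared with macrophages, by 4.18 ± 0.38, and neutrophil collagenase (Mmp8) by 5.95 ± 0.85. Neither of the primary granule genes listed passed the threshold. Mpo (myeloperoxidase) had 212, 31.4 and 293 normalized counts in imiquimod skin, against 384, 637 and 457 in untreated skin (-1.93 ± 0.85, adjusted p = 0.0659), and Prtn3 (proteinase 3) had 0 reads in each imiquimod library, against 1.15, 13.4 and 0 normalized counts in untreated skin (-1.65 ± 0.95, adjusted p = 0.132). Mpo passed as lower without imiquimod replicate 3 (adjusted p = 0.0426) and with equal medians (0.0341), and its difference was -0.95 without imiquimod replicate 2 (0.0629). Prtn3 passed as lower without untreated replicate 3 (-2.48, adjusted p = 0.0403), and its difference was -0.55 without untreated replicate 2 (0.247). Padi4, which citrullinates histones in neutrophils, was lower, at 169, 20.2 and 453 normalized counts in imiquimod skin, against 6296, 9075 and 4209.9 in untreated skin (-5.72 ± 1.10, adjusted p = 0.00489). Mpo, Prtn3 and Padi4 were named after their values were seen. The hair keratin genes, of which 13 of 15 are listed and 13 were lower (median -7.58), summed to 44688, 1244 and 206061 normalized counts in imiquimod replicates 1 to 3, against 1824410 to 3816900 in untreated skin, and Mpo and Padi4 follow the same order among the imiquimod libraries; the part of hair keratin levels in those values was not tested.

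Of 11 other surface genes of neutrophils, 7 are listed, with 6 higher and 1 lower (median 6.89). The lower gene was Il1r2 (-1.54 ± 0.38, adjusted p = 0.0114), named after its value was seen. The low-affinity Fc receptor Fcgr3a had 43794, 26508 and 26177 normalized counts in imiquimod skin, against 39.2, 24.8 and 32.4 in untreated skin (9.90 ± 0.34), and Trem1, an activating receptor of myeloid cells, differed by 6.19 ± 0.61. Of 16 macrophage and monocyte markers, 14 are listed and 14 were higher (median 3.00), with summed levels of 174979 to 261237 normalized counts in imiquimod skin, against 25222 to 48935 in untreated skin. Of 11 T and NK cell markers, 10 are listed and 10 were higher (median 3.85), with sums of 22224 to 28636 in imiquimod skin, against 720 to 1945 in untreated skin. No listed macrophage marker was at 0 in all libraries of a group. The skin itself was recognisable by keratinocyte genes, of which 3 of 8 are listed, with 1 higher, 1 lower and 1 not past the threshold. Their sums of 353341 to 799135 normalized counts in imiquimod skin, against 400855 to 497570 in untreated skin, hide opposite differences. Krt14 differed by 1.23 ± 0.34 (adjusted p = 0.015), Krt15 by -3.46 ± 1.20 (0.0329) and Krt1 by -1.44 ± 0.67 (0.0765). Krt14 lost its call with equal medians (adjusted p = 0.134) and Krt15 with equal totals (0.052). Krt15 also lost it without any 1 untreated library (0.0737 to 0.083) and without imiquimod replicate 3 (0.0617). When adjusted as if all protein-coding genes had been tested, neither passed (0.0577 for Krt14 and 0.127 for Krt15). Krt1 passed as lower with equal medians (0.044). The part of macrophages and lymphocytes in the differences of the members, of Fcgr3a and of the other surface genes was not tested.

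The genes nearest to each member were sought among 3705 listed genes with a symbol in RefSeq and a mean of at least 100 normalized counts. Nearness was the root mean square difference of centred log2 profiles over 6 libraries, which share depth and group. The nearest 3 were Lsp1 (0.0898), Pld4 (0.119) and Was (0.128) for Ncf4. For Itgb2 they were Cd68 (0.118), Il2rb (0.142) and Ptprcap (0.148), and for Ncf1 they were Cd3d (0.139), Cxcr4 (0.154) and Tyrobp (0.172). Cxcr2 was nearest to Snx10 (0.134), Phactr2 (0.166) and Akna (0.176). The profile of Csf3r had no neighbour as close, and its nearest were Oasl2 (0.258), Ifi44l (0.311) and Cd8b (0.316). The nearest to the low gene Fpr1 lay further still, at 0.424 (Esm1).

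None of the 9 genes is among the 399 listed for imiquimod with lidocaine against imiquimod alone, so no effect of lidocaine on them can be given, and their absence from a table of selected genes does not show that they were equal. Of the 399 genes, 32.1% passed the threshold in either direction and 11.0% passed as higher. Of the pathway lists, the lidocaine table holds Cxcl17 alone; none of the oxidase, integrin, colony-stimulating factor or chemoattractant receptor genes is in it. From the neutrophil granule and surface lists it holds 4 genes. Camp, the precursor of the cathelicidin antimicrobial peptide, had 18.7, 32.6 and 39.7 normalized counts with lidocaine, against 8.71, 9.11 and 12.3 with imiquimod alone, a log2 difference of 1.46 ± 0.48 (adjusted p = 0.0457). Pglyrp1, a peptidoglycan-binding protein of granules, had 74.6, 84.9 and 91.8 with lidocaine, against 40.9, 25.3 and 26.2 without it (1.44 ± 0.45, adjusted p = 0.0388). For both, the groups did not overlap, but the share of all 399 genes without overlap was not counted. Both calls were lost with a pseudocount of 0.1 (adjusted p = 0.0674 for Camp and 0.0611 for Pglyrp1). They were also lost when adjusted as if all protein-coding genes had been tested. The same held without any 1 imiquimod library and without lidocaine replicate 2 or 3, with adjusted p up to 0.098 for Camp and 0.108 for Pglyrp1. With the replicate number as a block, the adjusted p-values were 0.0749 and 0.0783.

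Lcn2 (lipocalin 2, an iron-siderophore binding protein of neutrophils and keratinocytes) had 7995, 5430.04 and 17319.9 normalized counts with lidocaine, against 2656, 3468 and 5167 with imiquimod alone, and did not pass (1.33 ± 0.56, adjusted p = 0.0693). Mmp8 had 320.1, 468 and 128 with lidocaine, against 138, 136 and 102 without it, with overlapping groups (1.10 ± 0.56, adjusted p = 0.0871). Cxcl17 had 2285, 2798 and 1179 with lidocaine, against 624, 1214 and 948 without it, and did not pass either (1.13 ± 0.52, adjusted p = 0.0757). With libraries scaled to equal medians of the listed genes, these 3 passed (adjusted p = 0.0245 for Lcn2, 0.0255 for Mmp8 and 0.022 for Cxcl17). Without lidocaine replicate 3 the difference was 0.86 for Lcn2 (adjusted p = 0.154), and without lidocaine replicate 2 it was 0.70 for Mmp8 (0.267). Of all genes called, 44 were higher and 84 lower with the deposited scaling, 58 higher and 32 lower with equal totals, and 125 higher and 32 lower with equal medians.

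**Figure D4:**
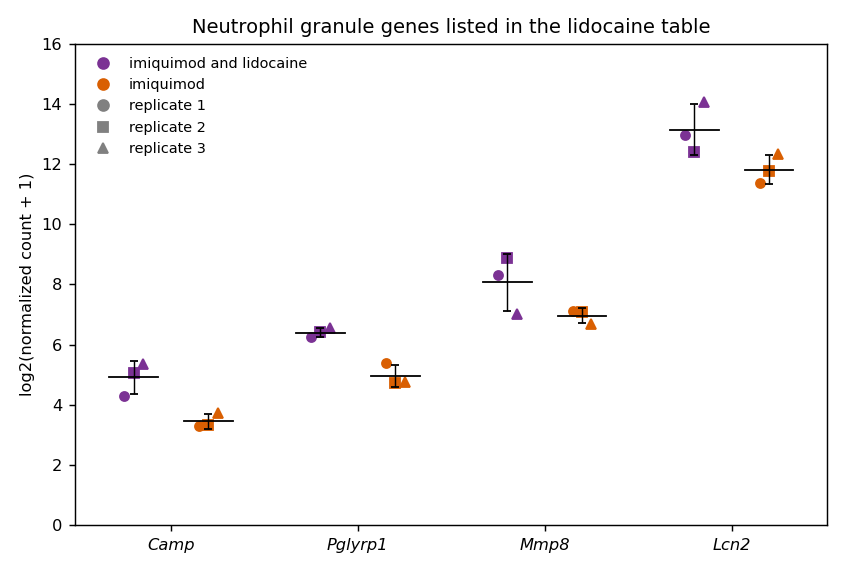
Each point is 1 library, on an axis of log2(normalized count + 1), for the 4 granule and surface genes of neutrophils that the lidocaine table lists. Imiquimod with lidocaine is on the left of each pair and imiquimod alone on the right, bars are the mean ± SD of the log2 values (n = 3 each), and the groups overlap for Mmp8.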

How the data were processed

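RNA was measured in 9 rat back skin libraries, grouped by sample title. Per the submitters' processing notes, bcl2fastq, STAR 2.5.3a and DESeq2 were used; for the build, annotation, counting tool, strand setting and gene selection, the details were not given in the sources used here. Values are log2 as the authors deposited them: log2(normalized count + 1) per gene and library. The imiquimod columns are equal in both tables (largest difference 4.97e-09 over 227 shared genes).

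The log was removed for printed levels. Values up to 2000 reads were whole multiples, within 0.01, of 1 read (0.817 to 1.24 normalized counts), which gave read numbers. Listed reads per library were 15947423 to 22929894 in the imiquimod table and 417714 to 803921 in the lidocaine table. Floors of 3 reads cover counting error only. Replicate pairs differed far beyond counting error, by 130 to 713 chi-square units per degree of freedom.

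Each table was fitted alone with limma 3.58.1 (lmFit, eBayes, two-sided, no block) in R 4.3.3, after the fit was tested on simulated data, with Benjamini-Hochberg adjustment over all its rows and a threshold of 0.05. Other steps used python 3.11.15, numpy 2.4.6, pandas 2.3.3, scipy 1.17.1 and matplotlib 3.10.9. Named were all members, at most 4 genes per list by smallest adjusted p, and the 3 nearest profiles per member; others are marked in the text, and some are not reported here. The members and the gene lists (19 with the members, 194 genes) were chosen with earlier results of these data known. Promoters were matched by symbol to RefSeq (GRCr8); Csf3, Itgb2 and Ncf4 had no entry. Alternatives covered pseudocount, low-value filter, threshold, replicate block, adjustment over all protein-coding genes, left-out libraries and 2 other scalings.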

Additional observations from a re-analysis of the deposited data

How the results depend on the processing

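Between 5 and 6 members passed the threshold under every alternative run for imiquimod against untreated skin, and no direction turned. The 2 scalings were chosen after seeing the data. Count models on recovered reads were not run, because the deposited unit is log2. The ratios with Fpr2 or Itgam, the members under lidocaine, and lidocaine against untreated skin gave no value, since those genes are not listed. Counting error weighs most on the lowest values, with 0 to 11 reads of Fpr1 per library and 0 to 41 reads of Csf3 per untreated library.

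Of all listed genes in the imiquimod table, 5287 passed, against 3280 at an adjusted p threshold of 0.01 and 4412 to 5408 without 1 library. For lidocaine, 128 genes passed, against 13 at 0.01, 56 with a pseudocount of 0.1, and 2 when adjusted as if all 23154 protein-coding genes had been tested. Among genes whose mean reached 100 normalized counts, limma called 0 of 203, although 118 had an unadjusted p under 0.05. Without 1 library the lidocaine count ran between 22 and 147, at 22, 62 and 58 without imiquimod replicate 1, 2 or 3, and 49 and 34 without lidocaine replicate 2 or 3.

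Without 1 library, the log2 ratio difference of Csf3r over Itgb2 ranged from 1.82 to 2.54 and that of Ncf1 over Ncf4 from -0.37 to -0.085. Csf3 lost its call with a pseudocount of 0.1 (adjusted p = 0.0752) and when adjusted over all protein-coding genes (0.116).

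Whether replicate numbers pair the samples could not be decided. Same-numbered deviations from the group means correlated at -0.232 to -0.0138 in the imiquimod table and -0.183 to -0.0641 in the lidocaine table. No sample correlated best with its own number. Deviations within so small a group constrain each other, and the listed genes are a selected set, so these values cannot exclude a pairing. With the replicate block, 6 members, 4756 genes of the imiquimod table and 92 of the lidocaine table passed; Duox1 and Il34 lost their calls (adjusted p = 0.0542 and 0.055).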
